A study of Mus musculus with 28 samples.

Results

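Small leucine-rich proteoglycans are secreted matrix proteins, and 9 of their genes (Dcn, Bgn, Lum, Fmod, Ogn, Aspn, Prelp, Omd and Podn) were followed by name among the 29068 genes of a count table from healing mouse skin. All 9 passed the filter on low counts and were tested among 18107 genes. Total RNA was sequenced from the wound site of MLKL+/+ mice on a C57BL/6J background, 8 weeks old, after a 6-mm punch excision down to the fascia of the back that was left to heal naturally. Every group carried this genotype, no agent was given, and the groups differed only in the day of collection, which the labels give as Day0, Day3, Day5, Day7, Day10, Day12 and Day14, with 4 libraries each (28 in all; the design text speaks of 5 repeats). The design text describes the Day0 control as taken 0 days after injury, whereas the study's own time scale calls the day of wounding day 1 and by that count Day0 would precede it, so whether Day0 tissue had itself been wounded could not be settled from these sources. The piece taken held the whole wound site with scab and epithelial edge, so each library mixed epidermis, dermis, infiltrating cells and underlying tissue, and the sources used here do not state whether the 4 libraries of a day came from separate mice. P-values therefore measure the spread between libraries, which may in part be technical.

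The family shares a curved protein core of leucine-rich repeats, and most members bind collagen and set the width and spacing of its fibrils. Class I holds decorin (Dcn), biglycan (Bgn) and asporin (Aspn); class II holds lumican (Lum), fibromodulin (Fmod), prolargin (Prelp) and osteomodulin (Omd); osteoglycin (Ogn) belongs to class III and podocan (Podn) to class V. In skin they are made mainly by dermal fibroblasts. Decorin and biglycan also bind transforming growth factor beta, and free biglycan is a ligand of the toll-like receptors Tlr2 and Tlr4.

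Most of these genes stand in clusters on the mouse genome (GENCODE M21 annotation, GRCm38). Dcn (10:97479609-97518143) and Lum (10:97565128-97572703) are neighbours on chromosome 10, Prelp (1:133910304-133921414, minus strand) and Fmod (1:134037254-134048277) on chromosome 1, and Aspn (13:49544443-49567565), Omd (13:49582462-49592822) and Ogn (13:49608046-49624501) on chromosome 13, while Podn (4:108014791-108096445, minus strand) and Bgn (X:73483602-73495933) lie elsewhere. Promoters of 7 of the 9 members were found in the RefSeq table (GRCm38.p6), and the 250 bases before the start are shown for 5 of them: for the chromosome 13 neighbours, which were all lower on day 3 than on day 0, and for Prelp and Fmod, which lie side by side and differed in opposite directions on that day. Sequences read 5′ to 3′ on the strand of the gene. Capitals mark matches, on either strand, to the TATA box (TATAAA), the RUNX motif (TGTGGT) and the TEAD motif (GGAATG); the AP-1 motif (TGANTCA) was also searched.
Aspn, chr13:49544193-49544442, plus strand:
Aspn: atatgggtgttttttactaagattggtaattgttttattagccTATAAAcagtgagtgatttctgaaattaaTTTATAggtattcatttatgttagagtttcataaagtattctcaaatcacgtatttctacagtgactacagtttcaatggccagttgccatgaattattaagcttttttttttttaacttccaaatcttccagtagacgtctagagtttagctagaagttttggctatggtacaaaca
Omd, chr13:49582212-49582461, plus strand:
Omd: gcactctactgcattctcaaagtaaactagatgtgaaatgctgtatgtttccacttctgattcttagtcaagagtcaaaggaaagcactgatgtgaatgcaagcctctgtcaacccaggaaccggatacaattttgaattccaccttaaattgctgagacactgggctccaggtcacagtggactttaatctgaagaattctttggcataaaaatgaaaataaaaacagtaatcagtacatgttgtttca
Ogn, chr13:49607765-49608014, plus strand:
Ogn: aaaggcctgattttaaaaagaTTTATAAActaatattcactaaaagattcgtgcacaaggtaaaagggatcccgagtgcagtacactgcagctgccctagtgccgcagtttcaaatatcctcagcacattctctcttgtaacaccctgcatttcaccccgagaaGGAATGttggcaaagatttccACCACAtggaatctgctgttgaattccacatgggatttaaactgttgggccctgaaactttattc
Prelp, chr1:133921402-133921651, minus strand:
Prelp: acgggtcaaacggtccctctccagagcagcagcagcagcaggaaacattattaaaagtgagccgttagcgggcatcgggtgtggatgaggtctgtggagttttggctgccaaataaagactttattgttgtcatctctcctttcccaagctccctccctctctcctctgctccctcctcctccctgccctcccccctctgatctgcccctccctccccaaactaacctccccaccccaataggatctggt
Fmod, chr1:134037004-134037253, plus strand:
Fmod: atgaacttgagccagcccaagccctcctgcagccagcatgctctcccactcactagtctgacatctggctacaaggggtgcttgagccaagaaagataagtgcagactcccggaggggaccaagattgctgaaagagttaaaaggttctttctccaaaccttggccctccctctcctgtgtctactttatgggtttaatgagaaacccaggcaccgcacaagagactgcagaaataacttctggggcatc
The Aspn window held TATAAA at 207 and its reverse complement at 178 bases before the start. The Ogn window held TATAAA at 227 and an overlapping reverse complement at 229 bases, a reverse-complement RUNX match at 65 and a TEAD match at 86 bases before the start. None of the 4 motifs was found in the Omd, Prelp and Fmod windows. Of 32851 promoter windows of the same length, 12.4% held TATAAA, 14.0% TGTGGT, 12.6% GGAATG and 6.75% TGANTCA. The windows of Aspn and Prelp had a G and C content of 30.0% and 55.6%.

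Library totals ran from 36706513 to 40655764 counts, and the 4 libraries of day 0 stood apart from one another before any member was considered. Over all genes, day 0 replicates 2 and 3 differed by a root mean square of 0.447 on the log2 scale, within the 0.404 to 0.498 seen between libraries of the later days, whereas every other day 0 pair differed by 0.695 to 0.786. The biological coefficient of variation was 26.5% on day 0 and 5.77% to 10.8% on the other days. The summed FPKM (read counts corrected for gene length and library total) of 8 dermal fibroblast markers was 1935, 4116, 4056 and 1263 in day 0 replicates 1 to 4, that of 6 keratinocyte markers was 2770, 1466, 1545 and 3083, and that of 4 skeletal muscle markers was 12239, 8013, 8295 and 12989. Comparisons of the members with day 0 were therefore also made with either pair (replicates 2 and 3, or 1 and 4), a split chosen after seeing the data, and those of other genes where stated.

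Decorin was the most abundant of the 9 transcripts on day 0, and its share of the family gave way to biglycan, lumican and asporin during repair. On the length-corrected FPKM scale, day 0 means were 1684 ± 961 for Dcn, 382 ± 222 for Lum, 273 ± 50.4 for Bgn, 110.2 ± 54.0 for Aspn, 93.5 ± 67.0 for Ogn, 54.3 ± 15.99 for Prelp, 22.04 ± 5.84 for Podn, 18.6 ± 2.48 for Fmod and 7.68 ± 5.26 for Omd (SD, n = 4). Neighbours in this order overlapped between libraries for Lum and Bgn, Aspn and Ogn, Ogn and Prelp, and Podn and Fmod. Dcn made up 61.7 ± 5.21% of the summed FPKM of the 9 genes on day 0 but 32.7 ± 0.449% by day 10. Its later shares were 45.5 ± 0.667% (day 12) and 39.8 ± 1.23% (day 14). The Bgn share was 12.6 ± 6.08% on day 0, 28.1 ± 1.38% on day 10 and 32.1 ± 2.80% on day 14. Lum went from 14.0 ± 1.497% to 23.8 ± 0.502% on day 10 and 12.8 ± 0.541% on day 14, and Aspn from 4.201 ± 0.137% through 1.56 ± 0.146% on day 3 to 10.4 ± 0.592% on day 10. The sum itself was 2645 ± 1340 on day 0, 1872 ± 140.3 on day 3, 3234 ± 86.1 on day 7 and 1326 ± 74.4 FPKM on day 14. In bulk tissue, fewer cells of a type and less RNA per cell cannot be told apart.

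**Figure D1:**
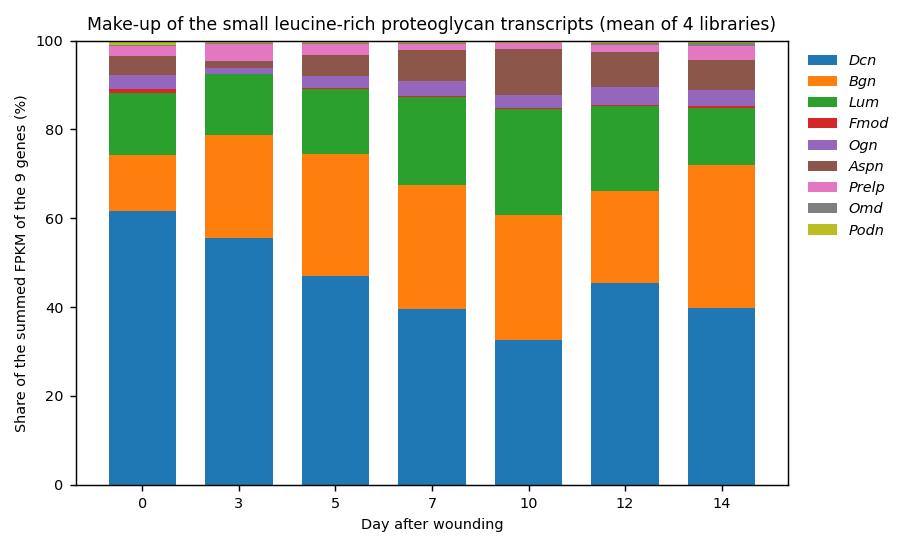
Share of the summed FPKM (y axis, percent) held by each of the 9 transcripts on each day after wounding (x axis); bars are means of 4 libraries. Dcn fills 61.7% of the bar on day 0 and 32.7% on day 10, where the Bgn, Lum and Aspn segments reach 28.1%, 23.8% and 10.4%.

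**Figure D2:**
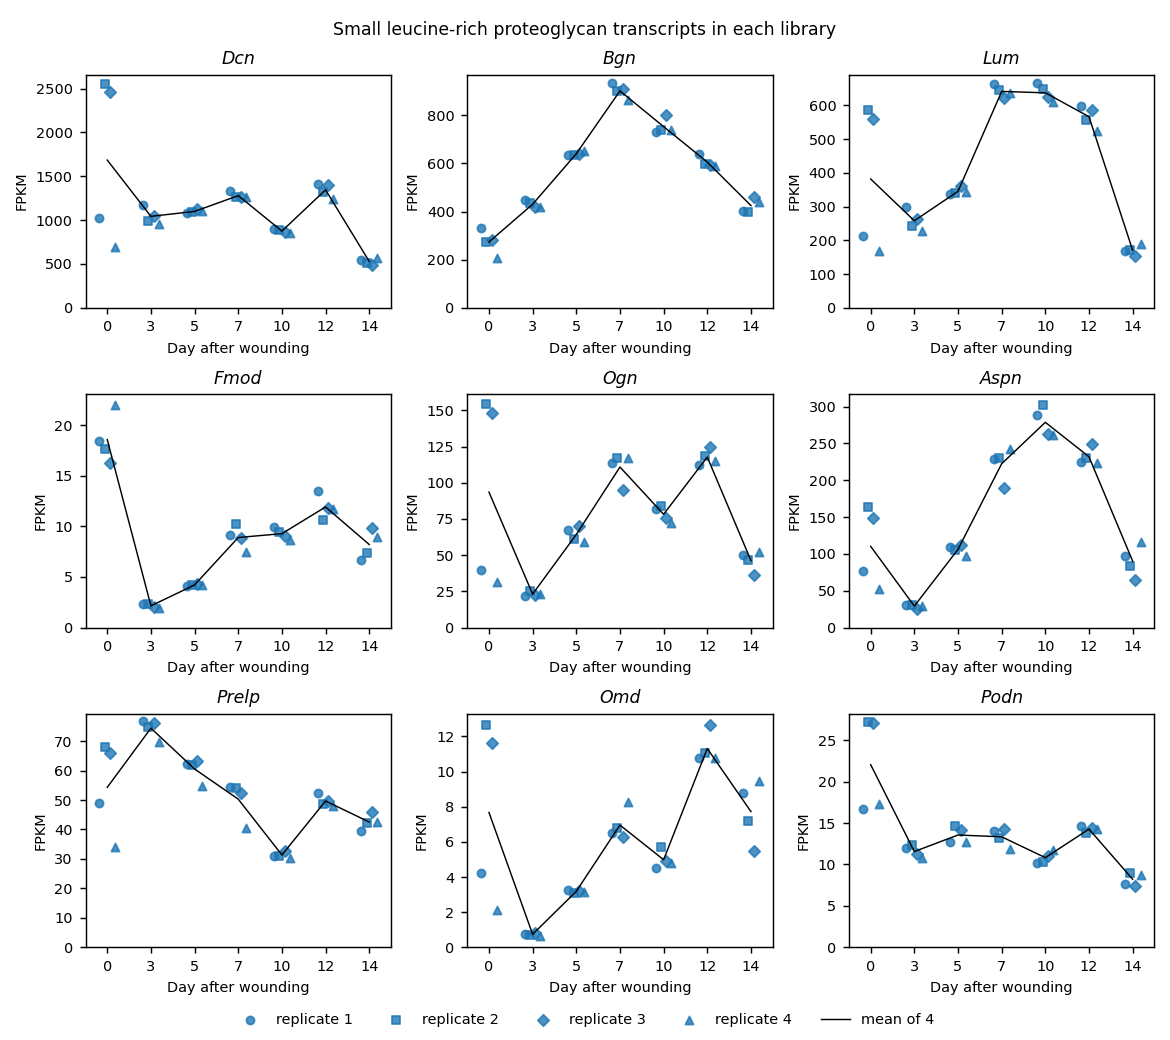
FPKM (y axis, linear from 0, its own scale in each panel) of the 9 transcripts on each day after wounding (x axis). Each point is 1 library, with a marker shape for each replicate, and the line joins the means of 4. Day 0 replicates 2 and 3 lie far above 1 and 4 for Dcn, Lum, Ogn, Aspn and Omd, and not for Bgn and Fmod.

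The first question was how each wound day compared with day 0. On day 3, 7 members were lower and 2 (Bgn and Prelp) higher, called at an adjusted p under 0.05 (edgeR's quasi-likelihood test, Benjamini-Hochberg over all genes), at a time when 66.6% of all genes tested were called, 34.8% lower and 31.8% higher. Day 5 called 1 member higher and 4 lower, against 29% and 30.6% of all genes (59.5% in either direction). Day 7 called 3 higher and 2 lower, against 25.6% and 24.8% (50.4%). Day 10 called 3 higher and 4 lower, against 23.5% and 26.9% (50.4%), and day 12 called 2 higher and 2 lower, against 21.7% and 25.6% (47.3%). Day 14 called 1 higher and 6 lower, against 28.2% and 34.5% (62.7%). The counts depended on the day 0 libraries used. Against replicates 1 and 4, 6 members were higher and 2 lower by day 5, 7 and 2 by day 7, and 6 and 2 by day 12, when 56.8%, 49.6% and 43.5% of all genes were called. Against replicates 2 and 3 the same days gave 1 and 7, 2 and 6, and 2 and 5 (57.5%, 47.9% and 47.1% of all genes). Days 3, 10 and 14 gave 4 higher and 5 lower, 5 and 3, and 4 and 4 against replicates 1 and 4. Against replicates 2 and 3 they gave 2 and 7, 2 and 6, and 1 and 8. Fitting only the 8 libraries of days 0 and 5 left 1 higher and 2 lower (49.3%). With 9 members these counts are a description, and nothing particular to the family was read from them. The median log2 fold change of the 9 members ran from -1.14 on day 14 to 0.19 on day 12, and that of all genes from -0.06 to 0.00. In the joint test over the 7 days all 9 members differed, as did 89.5% of all genes. Of the 54 comparisons of a member with day 0, 37 were called, and 27 of these kept their direction and their call in each of 22 other settings, which included both day 0 pairs. They were all 6 days of Bgn, Fmod and Podn, days 3, 7, 10 and 12 of Aspn, day 3 of Ogn and Omd, day 10 of Prelp, and day 14 of Dcn and Lum.

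The stricter criteria of the study (an absolute log2 fold change over 1.5 at an unadjusted p under 0.05, applied here to the edgeR fit) called fewer members. On day 3 they called 4 members lower and none higher, against 12.4% and 6.5% of all genes, and on day 5 they called 1 lower, against 8.31% (5.61% higher). On day 7, 1 member was higher, against 4.66% (4.74% lower), and no member passed on day 10 (4.33% higher and 5.14% lower) or day 12 (3.89% and 3.51%). On day 14, 2 members were lower, against 8.83% (5.15% higher). Between neighbouring days, 2 members were higher from day 3 to day 5, against 2.23% of all genes (0.685% lower), and 1 was lower from day 12 to day 14, against 2.78% (0.79% higher). No member passed from day 5 to 7 (2.5% higher and 1.16% lower), day 7 to 10 (1.39% and 3.22%) or day 10 to 12 (3.47% and 2.54%).

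**Figure D3:**
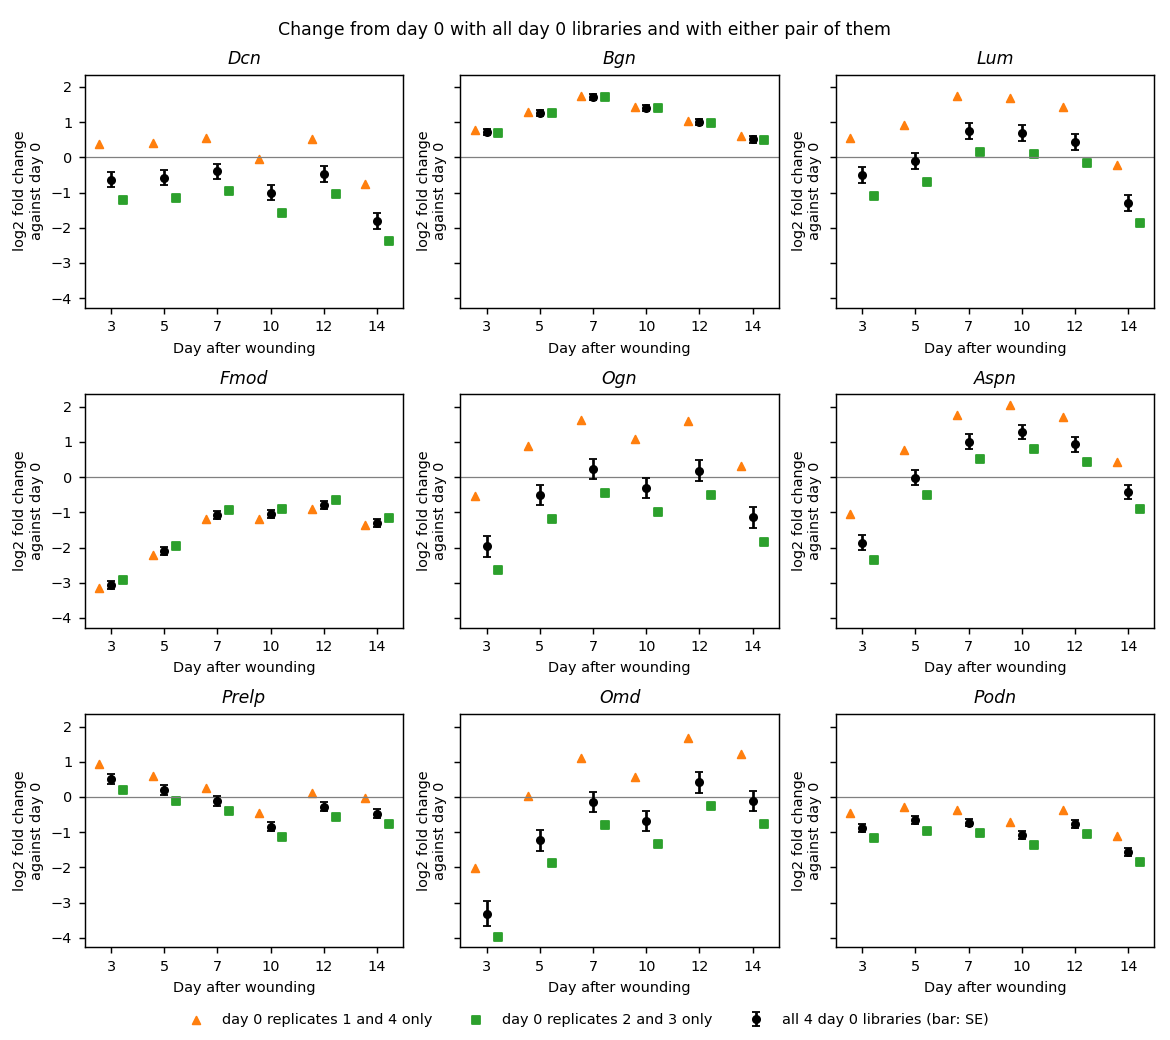
Log2 fold change against day 0 (y axis, edgeR) of each member on each later day (x axis). Black circles with SE use all 4 day 0 libraries, orange triangles only replicates 1 and 4, and green squares only replicates 2 and 3; the 3 markers nearly coincide for Bgn and Fmod and lie on both sides of 0 for Dcn on day 3, at -0.64, 0.38 and -1.21.

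Among class I members, biglycan was above its day 0 level on every wound day. Its FPKM was 330.6, 273, 282 and 208 on day 0, then 449, 437, 417 and 418 by day 3. The 4 libraries of day 7 held 934, 900, 908 and 866, those of day 14 held 401, 398, 461 and 439, and no library of a later day fell within the day 0 range. On day 3 the log2 fold change was 0.71 ± 0.09 (SE; adjusted p = 5.73e-08), and it reached 1.72 ± 0.09 on day 7, a 3.29-fold rise (adjusted p = 6.19e-15), and was 0.51 ± 0.09 on day 14 (adjusted p = 1.25e-05). With either day 0 pair the day 7 value was 1.73 or 1.70. Bgn lies on the X chromosome. The methods name both sexes, but every library held between 0 and 13 counts of Xist and between 2101 and 3722 counts of the Y-linked Ddx3y. That is the pattern of male tissue. The summed FPKM of 6 myofibroblast markers (among them Acta2, Tagln and Postn) ran from 287 to 448 on day 0, from 1559 to 1701 on day 7 and from 2156 to 2261 on day 10. Postn, at a mean of 94.1 FPKM on day 0, made up most of the later sums (1004 on day 7 and 1560 on day 10), whereas Acta2 and Tagln on days 7 and 10, at 143 to 177 and 82.0 to 96.0 FPKM, stayed within their day 0 ranges of 99.8 to 185 and 62.0 to 119. Of the 6 markers, 5 were called higher on day 7 and 4 on day 10, and none lower. Their part in the Bgn values was not tested.

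Decorin, which binds collagen through its core and carries a chondroitin or dermatan sulfate chain, varied more between the libraries of day 0 than between those of any later day, and was lowest on day 14. It measured 1023, 2556, 2458 and 698 FPKM on day 0. Later ranges were 954 to 1173 (day 3), 1260 to 1331 (day 7), 852 to 900.5 (day 10), 1237 to 1416 (day 12) and 486 to 566 (day 14). Day 14 was below every day 0 library, with a log2 fold change of -1.80 ± 0.23, a 3.48-fold fall (adjusted p = 9.60e-08), and of -0.76 or -2.37 against replicates 1 and 4 or replicates 2 and 3. On days 3, 5 and 10 Dcn was also called lower against all 4 libraries, by -0.64 ± 0.22, -0.57 ± 0.22 and -0.999 ± 0.22 (adjusted p = 0.0132, 0.0269 and 0.000453). Against replicates 1 and 4 those differences were 0.38, 0.40 and -0.04, and against replicates 2 and 3 they were -1.21, -1.14 and -1.57, so the direction on days 3 and 5 depended on the day 0 libraries. The 3 calls were kept in 14, 12 and 20 of 22 other settings. Day 0 Dcn was high in the libraries with the high fibroblast marker sums (replicates 2 and 3). Col1a1 gave the largest part of these sums, at 677 to 2742 FPKM over the day 0 libraries. Dpt ranged from 235 to 723 and Cd34 from 132 to 290 FPKM, while Thy1 (92.4 to 111) and Pdgfrb (17.9 to 21.1) varied little, and the part of tissue make-up in the Dcn values was not tested.

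Asporin, a class I member without a glycosaminoglycan chain that binds collagen and transforming growth factor beta, first fell and then rose above its day 0 level. It measured 76.2, 163, 149 and 52.7 FPKM on day 0, and only 31.2, 31.0, 25.8 and 28.7 by day 3. Day 7 libraries held 229, 229.6, 189 and 242, and day 10 libraries 288, 303, 262 and 261. All 4 libraries of day 3 lay below day 0, and all 4 libraries of days 7, 10 and 12 lay above it. The log2 fold change was -1.86 ± 0.21 on day 3, a 3.64-fold fall (adjusted p = 1.41e-08), and 1.28 ± 0.21 on day 10, a 2.43-fold rise (adjusted p = 8.98e-06). Against replicates 2 and 3 the day 10 value was 0.79 and against replicates 1 and 4 it was 2.05. On day 14 Aspn was back within the day 0 range, at 64.1 to 115.8 FPKM (log2 fold change -0.42 ± 0.21, adjusted p = 0.0769).

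Ratios within a library compare members in the same piece of tissue. The Bgn to Dcn ratio was 0.107 to 0.323 on day 0 and 0.383 to 0.439 by day 3. The day 0 values were 0.323 and 0.298 in replicates 1 and 4 and 0.107 and 0.115 in replicates 2 and 3. The size of a difference from day 0 thus depended on the day 0 libraries, and the ratio tests were not repeated with either pair. The Bgn to Dcn ratio then ran from 0.813 to 0.934 (day 10), 0.424 to 0.478 (day 12) and 0.736 to 0.947 (day 14). Every later library lay above every day 0 library, by a log2 difference of 1.16 on day 3 and 2.22 on day 10 (exact two-sided permutation test, n = 4 against 4, p = 0.0286 on each of the 6 days, the smallest this design can give, adjusted p = 0.0303 over 18 ratio tests). The Aspn to Dcn ratio was nearly the same in the 4 day 0 libraries, 0.0606 to 0.0757, although Dcn itself differed 3.66-fold among them. It was 0.0247 to 0.0312 on day 3 and 0.305 to 0.342 on day 10, a log2 difference from day 0 of -1.28 and 2.22 (exact permutation p = 0.0286, adjusted p = 0.0303 for both). For the class II pair that shares a site on collagen, the Fmod to Lum ratio was 0.0291 to 0.132 on day 0 and 0.00793 to 0.0100 on day 3, and it stayed below day 0 through day 12. On day 14 it was 0.0407 to 0.0644, within the day 0 range (log2 difference -0.22, exact permutation p = 0.743, adjusted p = 0.743). That range was split, at 0.0870 and 0.132 in day 0 replicates 1 and 4 and 0.0302 and 0.0291 in replicates 2 and 3. Every day 14 library lay between these pairs, so the small mean difference does not show a return to the day 0 level.

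**Figure D4:**
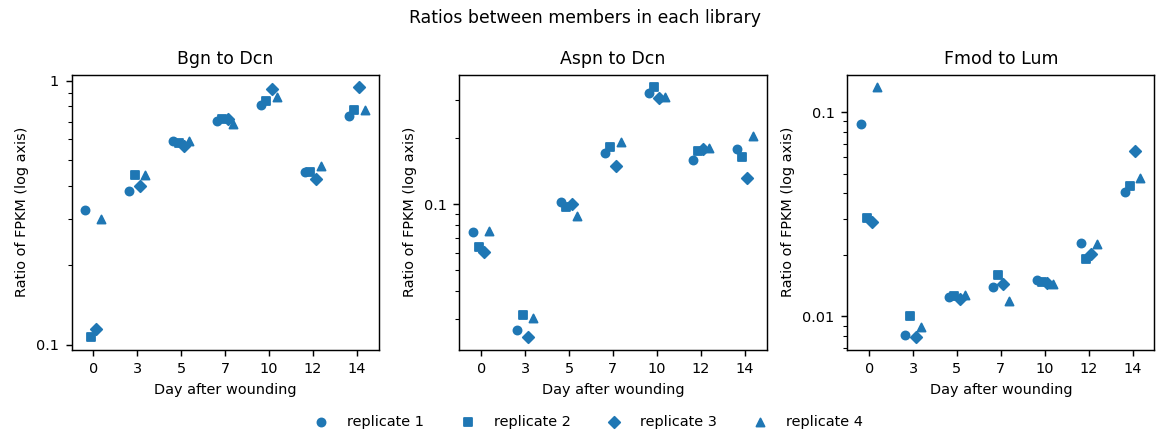
Ratio of FPKM (y axis, log scale) between 2 members in each library on each day after wounding (x axis), with 0.1 added to both values and a marker shape for each replicate. The 4 day 0 points of Aspn to Dcn lie together at 0.0606 to 0.0757, whereas those of Bgn to Dcn spread from 0.107 to 0.323 and those of Fmod to Lum from 0.0291 to 0.132.

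Within class II, fibromodulin, which guides the assembly of collagen fibrils, fell on day 3 and had not returned by day 14. It measured 18.4, 17.6, 16.2 and 22.04 FPKM on day 0 and 2.31, 2.33, 2.00 and 1.92 on day 3, an 8.35-fold fall (log2 fold change -3.06 ± 0.12, adjusted p = 7.02e-18). It then stood at 4.10 to 4.33 (day 5), 7.46 to 10.2 (day 7), 10.6 to 13.5 (day 12) and 6.71 to 9.86 FPKM (day 14), with no library within the day 0 range. The smallest difference was -0.78 ± 0.11 on day 12 (adjusted p = 1.54e-06). With either day 0 pair the day 3 value was -3.14 or -2.92. The summed FPKM of 4 hair follicle markers was 78.3 to 628 on day 0 but 1.61 to 4.01 by day 3 and 1559 to 2060 by day 12. That of the 4 skeletal muscle markers, which like Fmod was highest in day 0 replicates 1 and 4, was 8013 to 12989 on day 0, then 1776 to 2289 (day 3), 1857 to 2081 (day 7), 2810 to 3171 (day 12) and 2144 to 2486 FPKM (day 14), with all 4 called lower on every later day. The part of either list in the Fmod values was not tested.

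Lumican, which limits the width of collagen fibrils, reached its highest level on days 7 and 10. It measured 213, 586, 560.3 and 167 FPKM on day 0. Later ranges were 227 to 298 (day 3), 621 to 663 (day 7), 609.6 to 666 (day 10) and 154 to 189 (day 14). Against all 4 day 0 libraries it was called lower on day 3 (log2 fold change -0.51 ± 0.22, adjusted p = 0.0478) and on day 14 (-1.29 ± 0.23, adjusted p = 1.76e-05). It was called higher on day 7 (0.75 ± 0.22, adjusted p = 0.00699) and day 10 (0.69 ± 0.22, adjusted p = 0.0124). The day 3 call was kept in 7 of 22 other settings. The day 3 value was 0.54 against replicates 1 and 4 and -1.09 against replicates 2 and 3. In the same order the day 7 value was 1.75 or 0.16, and the day 10 value 1.69 or 0.10. On day 14 both pairs gave a lower level, by -0.21 and -1.87.

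Prelp, which binds heparan sulfate as well as collagen, went the other way from its neighbour Fmod on day 3. It measured 49.0, 68.1, 66.0 and 34.1 FPKM on day 0 and 76.8, 74.9, 76.1 and 69.7 on day 3, all above day 0 (log2 fold change 0.51 ± 0.13, adjusted p = 0.00114). The difference was 0.94 against day 0 replicates 1 and 4 and 0.21 against replicates 2 and 3. On day 10 it had fallen to 30.5 to 32.8 FPKM, below every day 0 library (log2 fold change -0.85 ± 0.13, a 1.80-fold fall, adjusted p = 4.43e-06), on day 12 it was 48.0 to 52.3, and on day 14 it was called lower than day 0 (-0.48 ± 0.13, adjusted p = 0.00227). The day 14 libraries, at 39.5 to 45.8 FPKM, lay within the day 0 range, and the difference was -0.02 against replicates 1 and 4 (adjusted p = 0.891) and -0.78 against replicates 2 and 3. The summed FPKM of 7 leukocyte markers was 1035 to 1479 on day 0 but 10185 to 12361 by day 3 and 2027 to 2151 by day 10, and its part in the Prelp values was not tested.

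Omd and Ogn, next to Aspn on chromosome 13, were also lowest on day 3. Osteomodulin, named for its place in bone matrix, measured 4.23, 12.7, 11.6 and 2.15 FPKM on day 0 and 0.768, 0.729, 0.840 and 0.628 on day 3, a 9.94-fold fall (log2 fold change -3.31 ± 0.35, adjusted p = 2.54e-09). With either day 0 pair the value was -2.01 or -3.97. Osteoglycin measured 40.0, 154, 148 and 31.3 FPKM on day 0 and 21.6, 24.9, 22.5 and 23.4 on day 3, a 3.88-fold fall (log2 fold change -1.96 ± 0.30, adjusted p = 1.83e-06), which was -0.52 or -2.65 with either pair. From day 7 to day 12 both lay within the wide day 0 range, and on day 14 Ogn was called lower (-1.14 ± 0.29, adjusted p = 0.00121), with 0.32 against replicates 1 and 4. The 3 chromosome 13 genes lie within Cenpp, a gene on the opposite strand with 0.149 to 0.977 FPKM, and strandedness of the counting is not given in the sources used here.

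Podocan, the class V member, was lower on every wound day, and on day 14 most of all. It measured 16.7, 27.2, 27.0 and 17.3 FPKM on day 0, then 10.7 to 12.3 (day 3), 13.8 to 14.6 (day 12) and 7.45 to 8.95 (day 14), with no later library within the day 0 range. On day 3 the difference was -0.87 ± 0.11 on the log2 scale (adjusted p = 1.03e-07), and day 14 gave -1.55 ± 0.11, a 2.93-fold fall (adjusted p = 3.68e-12). Against replicates 1 and 4 it was smaller, at -0.28 on day 5 and -1.10 on day 14. In the annotation Podn overlaps Scp2 on the same strand, which stood at 84.1 to 148 FPKM, so the level of Podn is uncertain where the counting could share reads.

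The second question was how the members moved within the wound, from day 3 on. Against day 3, 6 members were higher and Prelp lower on day 7 (25.8% of all genes were higher and 24.2% lower, 50% in all), day 10 (30.7%, 28.4% and 59.1%) and day 12 (33.1%, 30.6% and 63.7%). On day 14, 4 were higher and 5 lower (34.2%, 32.8% and 67%). By day 12 Omd had risen 13.3-fold (log2 fold change 3.73 ± 0.35, adjusted p = 2.77e-10), Aspn 6.92-fold, Fmod 4.85-fold, Ogn 4.43-fold, Lum 1.91-fold and Bgn 1.22-fold. Aspn had its highest mean on day 10, 8.85-fold above day 3 (3.15 ± 0.22, adjusted p = 1.51e-12), and Bgn and Lum had their highest means on day 7, 2.01-fold and 2.39-fold above day 3. In the fit over all 7 days Dcn and Podn were called against day 3 only on day 14, when they were lower by -1.16 ± 0.22 and -0.68 ± 0.11 (adjusted p = 4.50e-05 and 6.82e-06). With only the 8 libraries of the 2 days compared, a fit without the day 0 libraries that was chosen after seeing the data, all 9 members were called on each of the 4 days, as were 57.8%, 70.3%, 72.8% and 73.3% of all genes. Dcn was then higher by 0.25 ± 0.05 on day 7, lower by -0.36 ± 0.05 on day 10 and higher by 0.18 ± 0.06 on day 12 (adjusted p = 0.000813, 3.53e-06 and 0.0122 by edgeR's quasi-likelihood test). Podn gave 0.16 ± 0.07, -0.20 ± 0.05 and 0.11 ± 0.05 (adjusted p = 0.0433, 0.00207 and 0.0316). In FPKM, the day 7 libraries of Dcn all lay above day 3, and its day 10 libraries all lay below day 3. Those of Podn overlapped, at 10.2 to 11.7 on day 10 and 10.7 to 12.3 on day 3.

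In the fit over all 7 days, steps between neighbouring days were mostly upward until day 7 and downward from day 12 to day 14. From day 3 to day 5, Bgn, Fmod, Ogn, Aspn and Omd rose (24.3% of all genes were called, 12.9% higher and 11.4% lower), and from day 5 to day 7 Bgn, Lum, Fmod, Aspn and Omd did (28.5%, 13.9% and 14.6%). From day 7 to day 10, Dcn, Bgn, Prelp and Podn fell (32.3% of all genes called, 18% lower and 14.3% higher, and 2 calls were left without day 7 replicate 3, day 10 replicate 1 or day 10 replicate 2), and from day 10 to day 12 Prelp, Omd and Podn rose while Bgn fell (39.4%, 18.7% higher and 20.7% lower). From day 12 to day 14, 7 members fell and none rose, when 45.2% of all genes were called with 25.3% lower and 19.9% higher. Lum fell 3.29-fold in that step (log2 fold change -1.72 ± 0.23, adjusted p = 9.20e-07), Aspn 2.55-fold, Ogn and Dcn 2.52-fold, Podn 1.72-fold, Fmod 1.43-fold and Bgn 1.41-fold. Omd and Prelp were not called, at -0.54 ± 0.29 and -0.21 ± 0.13. With only the 8 libraries of the 2 days more members were called in every step. There were 7 higher and 1 lower from day 3 to 5 and again from day 5 to 7 (29.4% and 30.8% of all genes), 1 and 6 from day 7 to 10 (43.3%), 6 and 3 from day 10 to 12 (53.9%) and 0 and 9 from day 12 to 14 (55.2%). In the step from day 10 to day 12 this added rises of Dcn (0.54 ± 0.05), Ogn (0.51 ± 0.05) and Fmod (0.28 ± 0.07) and falls of Lum (-0.25 ± 0.05) and Aspn (-0.34 ± 0.05), each with libraries that did not overlap between the 2 days. The summed fibroblast markers were 1290 to 1457 (day 3), 3583 to 3714 (day 7), 3057 to 3503 (day 12) and 1412 to 1640 FPKM (day 14). By edgeR's quasi-likelihood test, 7 of these 8 markers were called lower and 1 higher on day 14 than on day 0, and 5 were called higher and none lower on day 7 than on day 3, and none was at 0. Their part in the member values was not tested.

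**Figure D5:**
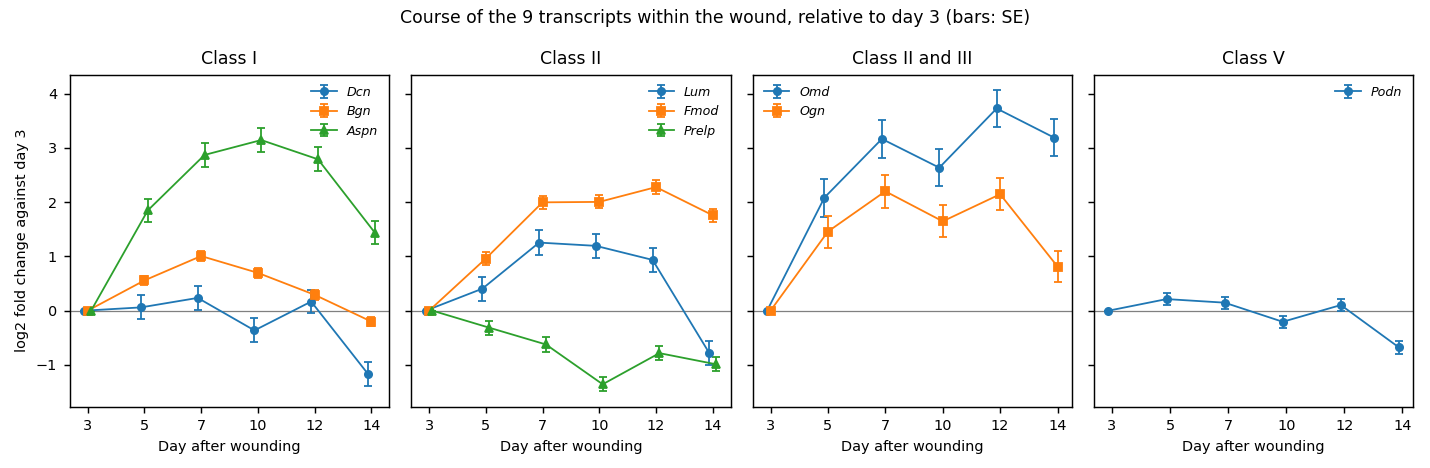
Log2 fold change against day 3 (y axis, edgeR, bars are SE) of the 9 members by class on each later day (x axis); the day 3 point is 0 by construction. Aspn reaches 3.15 on day 10 and Omd 3.73 on day 12, Prelp lies below 0 throughout, and Dcn and Podn stay between -0.36 and 0.24 until day 14.

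Other genes of the family were read from a list of 9. Ecm2, named here as the neighbour of Aspn on chromosome 13, went from 32.1 FPKM on day 0 to 4.62 on day 3 (log2 fold change -2.74 ± 0.23, adjusted p = 2.70e-11 by edgeR's quasi-likelihood test), the same direction as its 3 neighbours, and -1.82 or -3.28 with either day 0 pair. Kera, beside Lum on chromosome 10, went from 1.71 FPKM to 0.185 on day 3 (-3.15 ± 0.27, adjusted p = 3.55e-11). Podnl1, the closest relative of Podn, rose from 0.0745 to 1.88 FPKM on day 10 (4.56 ± 0.32, adjusted p = 3.85e-12). Of the 8 that could be tested, 2 were higher and 4 lower on day 3, and 4 higher and 1 lower on day 10, when 31.8% and 34.8% (day 3) and 23.5% and 26.9% (day 10) of all genes were. With either pair it was 2 and 4 or 1 and 3 on day 3. Chad had at most 7 counts in a library and was not tested.

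Enzymes that build the sugar chains of these proteins were called in both directions on days 3 and 14. On day 3, 4 of 7 linker enzymes were higher and 1 lower, led by Xylt1, which starts the chain, at 3.74 against 1.48 FPKM on day 0 (log2 fold change 1.40 ± 0.24). Of 16 chondroitin and dermatan sulfate enzymes, 8 were higher and 3 lower on day 3, and 4 higher and 8 lower on day 14. Of all genes, 31.8% were higher and 34.8% lower on day 3, and 28.2% and 34.5% on day 14. Against day 0 replicates 1 and 4 the 16 gave 9 higher and 2 lower on day 3 and 5 and 5 on day 14, and against replicates 2 and 3 they gave 7 and 6, then 4 and 8. The sulfotransferase Chst11 rose 6.65-fold on day 3, from 2.07 to 13.3 FPKM (2.73 ± 0.10, and 3.02 or 2.53 with either pair). Chst13 was called lower on day 14 (-3.09 ± 0.78), at 0.0194 against 0.165 FPKM, with libraries that overlapped those of day 0. Of 6 keratan sulfate enzymes tested (Chst4 had at most 8 counts), 3 were higher and 2 lower on day 3. The median log2 fold change of the 3 lists lay between 0.15 and 0.33 on day 3, against -0.03 for all genes, and between -0.22 and 0.12 on day 14. Chst5 had the largest called changes of the keratan sulfate list, in both directions, at a mean of 0.0398 FPKM on day 0, 0.00331 on day 3 and 0.186 on day 14. Its day 3 libraries overlapped those of day 0, and the call was lost against replicates 2 and 3 on day 3 (adjusted p = 0.159) and against replicates 1 and 4 on day 14 (adjusted p = 0.0835).

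The collagens to which the members bind, the receptors of the family and the proteases that cut it were counted in the same fit. Of 11 fibrillar and fibril-associated collagens, 4 were higher and 4 lower on day 3, 10 higher and none lower on day 10, and 4 higher and 3 lower on day 14. The shares of all genes called higher and lower were 31.8% and 34.8% (day 3), 23.5% and 26.9% (day 10) and 28.2% and 34.5% (day 14). The collagen counts moved with the day 0 libraries. Against replicates 1 and 4 there were 6 higher and 1 lower on day 3 and 8 and 0 on day 14, and against replicates 2 and 3 there were 4 and 6 on both days. On day 10 they were 11 and 0 or 9 and 1. Col12a1 rose 19.5-fold on day 7, from 4.43 to 86.5 FPKM, and Col1a2 fell 2.73-fold on day 3, from 2154 to 758, although the libraries overlapped (log2 fold change -0.38 or -2.04 with either pair). Of 12 receptors and ligands, 9 were higher and 2 lower on day 3, and 8 lower and none higher on day 14 (2 higher and 6 lower, or 1 and 9, with either pair). Cd14, the co-receptor used by biglycan at toll-like receptors, rose 16.7-fold on day 3, from 14.7 to 235 FPKM, and Tgfb2 fell 4.34-fold. Of 11 proteases, 8 were higher and 2 lower on day 3, including neutrophil collagenase Mmp8 at 18.5 against 0.190 FPKM, and 6 were lower and none higher on day 14 (3 higher and 6 lower, or 1 and 9, with either pair), including Mmp9 at 0.935 against 10.6 FPKM (log2 fold change -3.63, and -2.5 against replicates 1 and 4 or -4.23 against replicates 2 and 3). Cd14 and Mmp8 moved with the leukocyte marker sum, of whose 7 genes all were higher on day 3, and the part of that in their values was not tested.

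Genes most like each member over the 28 libraries were found as those with the smallest root mean square difference in centred log2 depth-corrected counts, given here as a description without a test. This measure is not scaled to a gene's own spread. The points share libraries and tissue make-up. Lum lay closest to Mmp2 (0.23), Antxr1 (0.26) and Col1a1 (0.27), Ogn to Pdgfrl (0.27), Akr1c18 (0.28) and Col1a2 (0.32), and Aspn to Angptl1 (0.22), Gpc6 (0.24) and Mfap2 (0.27). Dcn lay closest to Man1a (0.19), Ccl11 (0.20) and Rnase4 (0.20), Bgn to Lipa (0.20), Cd276 (0.20) and Grb10 (0.21), and Podn to Add3 (0.15), Abcc4 (0.16) and Ang (0.16). Fmod was nearest to Ptger3 (0.27), Mn1 (0.31) and Naaladl2 (0.32), and Prelp to Sema4a (0.16), Cmtm6 (0.17) and Tbc1d14 (0.18). Omd lay nearest to Tnmd (0.31), a gene of tendon cells, followed by Itgbl1 (0.42) and Gpc3 (0.44). Tnmd measured 16.9 to 70.5 (day 0), 4.06 to 6.25 (day 3) and 55.4 to 68.8 FPKM (day 12). Of the other 5 genes of the cartilage, tendon and bone list, Scx, a tendon factor, had means of 2.74 (day 0), 1.04 (day 3) and 3.23 FPKM (day 14), Acan, a cartilage proteoglycan, of 0.0547, 0.0448 and 1.73 FPKM on those days, while cartilage and bone markers Col2a1, Bglap and Ibsp were at 0 to 0.0415, 0 to 0.431 and 0 to 0.154 FPKM over all libraries. Among the members themselves, Dcn and Podn were closest (0.295), followed by Podn and Prelp (0.462) and Aspn and Ogn (0.485), and the chromosome 1 neighbours Fmod and Prelp were farther apart (1.22).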

How the data were processed

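Total RNA of 28 wound-site libraries (7 days, 4 each) was sequenced. The authors deposited raw read counts per gene and FPKM values derived from them. The submitters' processing notes name fastp, R 3.2.0 and mm10; the aligner, counter, annotation and strand setting are not given in the sources used here. Counts were tested with edgeR 4.0.16 (R 4.3.3; TMM, quasi-likelihood, all 7 days in 1 fit, 21 residual degrees of freedom) over 18107 of 29068 genes, with Benjamini-Hochberg adjustment and a threshold of 0.05, after a check on simulated data. The simulated counts gave each gene the same dispersion on every day, so the check did not cover the wider spread of day 0. FPKM served for levels, shares and ratios (0.1 added for ratios). DESeq2 1.42.0 and limma 3.58.1 served as alternatives. All 9 members were named, with the largest called rise and fall of each list and the 3 genes most like each member; Ecm2 was added for its position. The members and lists were chosen with earlier results of these data known. Groups came from the labels. Replicate numbers did not pair the libraries: 1 of 84 same-numbered pairs correlated over 0.1.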

Additional observations from a re-analysis of the deposited data

Results flagged for a closer look

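The 9 member levels and 3 ratios on 7 days made 84 groups of 4 libraries, and in 8 of them, all of member levels, 1 library stood apart from the other 3 by Dixon's criterion on log2(FPKM + 0.1); chance flags about 1 in 20 groups, here 4.2. Dcn was highest in day 7 replicate 1, at 10.38 against 10.30 in the others. Bgn was highest in day 5 replicate 4 (9.35 against 9.31 to 9.32), day 10 replicate 3 (9.65 against 9.52 to 9.53) and day 12 replicate 1 (9.32 against 9.21 to 9.22). Ogn was lowest in day 7 replicate 3, at 6.58 against 6.83 to 6.87. Prelp was lowest in replicate 4 of day 5 (5.78 against 5.96 to 5.98) and of day 7 (5.34 against 5.72 to 5.77). Omd was highest in day 12 replicate 3, at 3.67 against 3.44 to 3.48.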

How the results depend on the processing

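Against day 0, 9, 5, 5, 7, 4 and 7 members were called on days 3, 5, 7, 10, 12 and 14, and 5, 5, 4, 4 and 7 between neighbouring days. Under the study's criteria (absolute log2 fold change over 1.5, unadjusted p under 0.05, on the edgeR fit) these were 4, 1, 1, 0, 0 and 2, and 2, 0, 0, 0 and 1. With only the 8 libraries compared, day 5 against day 0 gave 3, and the first 4 neighbouring steps gave 8, 8, 7 and 9. Day 10 against day 7 gave 2 with limma at either pseudocount. With the replicate number as a block the counts were 8, 5, 5, 7, 4 and 7 against day 0 and 6, 6, 4, 4 and 7 between neighbours, and 8 of 28 libraries correlated best with their own number. Leaving out 1 library gave 7 to 9, 4 to 6, 5 to 7, 7 to 9, 4 to 6 and 7 to 8 against day 0, and 2 to 3 for day 10 against day 7. Of 22 settings, Lum kept its call in 7, 20 and 19 (days 3, 7 and 10), Dcn in 14, 12 and 20 (days 3, 5 and 10), Ogn in 17 (day 14), Prelp in 21 and 18 (days 3 and 14) and Omd in 20 (day 5).

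These alternatives were chosen after seeing the data. Without day 0 replicates 2 and 3, 8, 9 and 8 members were called on days 5, 7 and 12, and without replicates 1 and 4, 8, 8 and 7. On days 3, 10 and 14 there were 4 higher and 5 lower, 5 and 3, and 4 and 4 without replicates 2 and 3. Without replicates 1 and 4 there were 2 and 7, 2 and 6, and 1 and 8. With day 3 as the reference, day 12 gave 7. The Bgn to Dcn ratio on day 12 then differed by 0.12 (exact permutation p = 0.143), and the Fmod to Lum ratio was above the reference by 0.52, 0.68, 0.76, 1.28 and 2.47 on days 5, 7, 10, 12 and 14, because day 3 was its lowest day.

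Single log2 fold changes against day 0 reversed as follows. Without replicates 2 and 3, Dcn gave 0.38, 0.40, 0.56 and 0.51 on days 3, 5, 7 and 12, Lum 0.54 and 0.91 on days 3 and 5, Ogn 0.90, 1.08 and 0.32 on days 5, 10 and 14, Aspn 0.77 and 0.43 on days 5 and 14, Omd 0.040, 1.11, 0.58 and 1.21 on days 5, 7, 10 and 14, and Prelp 0.27 and 0.13 on days 7 and 12. Without replicates 1 and 4, Prelp gave -0.10 on day 5, Ogn -0.45 and -0.50 on days 7 and 12, Lum -0.16 and Omd -0.24 on day 12. With limma on log2(FPKM + 1), also at a mean FPKM of at least 1, Lum gave 0.069 and Aspn 0.090 on day 5, Omd 0.12 on day 7, Ogn 0.087 on day 10 and Omd 0.23 on day 14; with 0.1 added, 0.070, 0.093, 0.18, 0.093 and 0.31. Aspn on day 5 was 0.0094 with the block and 0.000143 with Xist as a covariate, and Omd on day 14 was 0.0067 without composition normalization. Leaving out 1 library, Ogn ranged from -0.045 to 0.60 (day 7), -0.60 to 0.044 (day 10) and -0.082 to 0.55 (day 12), Lum from -0.34 to 0.18 and Aspn from -0.23 to 0.23 (both day 5), Omd from -0.46 to 0.21 (day 7) and -0.35 to 0.27 (day 14), and Prelp from -0.28 to 0.018 (day 7). The cause was not tested. Of the other settings of single members, 1043 kept direction and call, 47 lost the call and 43 gained it. The SE of a log2 difference between day 3 and day 0 ran from 0.09 for Bgn to 0.35 for Omd, which limits what could be detected.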
